A study of Mus musculus with 6 samples.

Results

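The Dlk1-Dio3 domain is an imprinted stretch of mouse chromosome 12, and 6 of its genes were followed here in mouse embryonic stem cells kept alive by a mouse or a coelacanth POU5 protein. Its members were Dlk1, Meg3 (also called Gtl2), Rian, Mirg, Rtl1 and Dio3, and their probes were found through the RefSeq transcript that the array design gives each probe. Of the 6 genes, 4 had a probe matched this way, with 5 probes among 55681 non-control probes on the array. Meg3 and Rian had no matched probe, so their expression is not analysed here. Only 2 of the 5 probes, both of Dlk1, passed the filter on dim signals, among 30939 probes that did.

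The domain is expressed according to the parent a chromosome came from. The protein-coding genes Dlk1, Rtl1 and Dio3 are transcribed from the paternal copy, while the maternal copy gives rise to the noncoding RNAs Meg3, Rian and Mirg and to the many small RNAs processed from them. A differentially methylated region between Dlk1 and Meg3, methylated on the paternal copy, keeps the parental patterns apart, and the domain is well known in stem cell work because the Meg3 side is silenced in some reprogrammed lines. The arrays do not separate the parental copies, so each value is the sum of both.

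Groups of lines with different rescue proteins were compared, each of 2 clones with 1 array per clone. All derived from ZHBTc4, mouse embryonic stem cells without functional endogenous Pou5f1 whose self-renewal rests on an Oct4 transgene that tetracycline shuts off. Cells of all groups carried a rescue plasmid driven by the CAG promoter with puromycin resistance and grew in serum and LIF with tetracycline at 2 μg/mL. Puromycin at 1 μg/mL came in on day 2 after electroporation, and colonies picked on day 9 were expanded, so each sample is the progeny of 1 colony. The rescue protein was coelacanth POU5F1 (LcPOU5F1, clones 4 and 5), coelacanth POU5F3 (LcPOU5F3, clones 1 and 2) or mouse OCT4 (mOct4, clones 1 and 2). The series asks how far each coelacanth protein can stand in for mouse OCT4.

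Each array detected 43.4% to 57.8% of probes well above background, and no spot was saturated. The spread between the 2 clones of a group, as a root mean square SD over kept probes on the log2 scale, was 0.34 in LcPOU5F1, 0.54 in LcPOU5F3 and 0.24 in mOct4 clones. Mouse Pou5f1 was detected in the mOct4 clones alone, where its probe read 101.5 and 107.4. It was not well above background in the other 4 clones. There it read 13.6 and 19.8 in LcPOU5F1 clones 4 and 5, and 51.8 and 6.86 in LcPOU5F3 clones 1 and 2. The lowest signal well above background on the array of LcPOU5F3 clone 1 was 91.5, so its reading is only a bound. Intensities are processed array signals on a linear scale, and log2 levels are given relative to the 75th percentile of the same array, which lay between 268.4 and 412.6, so raw intensities of different arrays are not scaled to each other. The small number of arrays limits the precision of every value.

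Dlk1 was the only member with probes that could be tested. Dio3 is the coding gene at the opposite end of the domain, and its probe was not above background. The promoters of both are shown. Each is 300 bases on the plus strand from RefSeq for GRCm38.p6 around the annotated start, with CpG dinucleotides, where methylation is placed, in capitals.
Dlk1, chr12:109452573-109452872: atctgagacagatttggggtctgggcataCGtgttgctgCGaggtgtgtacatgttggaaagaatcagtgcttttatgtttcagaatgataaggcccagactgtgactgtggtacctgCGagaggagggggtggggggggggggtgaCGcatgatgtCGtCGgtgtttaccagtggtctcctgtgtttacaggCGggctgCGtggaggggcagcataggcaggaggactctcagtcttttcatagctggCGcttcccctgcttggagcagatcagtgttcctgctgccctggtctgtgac
Dio3, chr12:110278980-110279279: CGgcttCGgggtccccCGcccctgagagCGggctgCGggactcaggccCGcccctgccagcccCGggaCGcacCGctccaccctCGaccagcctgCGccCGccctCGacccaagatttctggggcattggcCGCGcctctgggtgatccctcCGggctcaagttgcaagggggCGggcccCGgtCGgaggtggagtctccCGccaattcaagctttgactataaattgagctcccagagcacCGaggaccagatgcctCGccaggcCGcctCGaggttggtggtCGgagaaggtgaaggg

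The Dlk1 window held 9 CpGs at a GC content of 55.7%, and the Dio3 window held 25 CpGs at 69.0%. The median over 32851 RefSeq promoter windows of this length was 7 CpGs and 52.7% GC, and 81.6% of windows had fewer CpGs than that of Dio3. Among the other members, the Meg3 windows at its 2 annotated starts held 13 CpGs and 1 CpG, the Rian window held 0 and the Mirg window 10. The octamer ATGCAAAT, the sequence that POU factors such as OCT4 bind, searched on both strands, was in 0 of these 6 windows and in 1.74% of all windows. The hexamer TGCCGC, which the imprint guardian ZFP57 binds when methylated, was in the first Meg3 window alone and in 11.6% of all windows. These are letters in short windows and say nothing of what is bound in the cells.

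Dlk1 was high in the LcPOU5F3 clones and low in both other groups, on each of its 2 probes. Dlk1 encodes a membrane protein of the Delta family that lacks the domain by which classical Delta ligands activate Notch, and it is known as a marker of immature and fetal cells. The brighter probe, A_66_P117477, read 149.5 and 183.3 in LcPOU5F1 clones 4 and 5. It read 2486 and 3864 in LcPOU5F3 clones 1 and 2, and 125.7 and 113.4 in mOct4 clones 1 and 2. All 6 readings were well above background, and the LcPOU5F3 pair lay far above the other 4 with no overlap. On the log2 scale the mean level was -0.91 ± 0.35 in LcPOU5F1, 3.01 ± 0.59 in LcPOU5F3 and -1.26 ± 0.02 in mOct4 clones (SD, n = 2 each).

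The dimmer probe of the same transcript, A_55_P2105371, also read highest in the LcPOU5F3 clones, and gives no order between the other 2 groups. It read 26.1 and 24.9 in LcPOU5F1 clones 4 and 5, neither well above background. It read 275.1 and 470.9 in LcPOU5F3 clones 1 and 2, both well above background, and 15.8 and 13.1 in mOct4 clones 1 and 2, neither above it. Its LcPOU5F1 and mOct4 levels are therefore bounds, and a ratio against them is given as "at least", with each dim array taken at its lowest signal that was well above background.

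**Figure D1:**
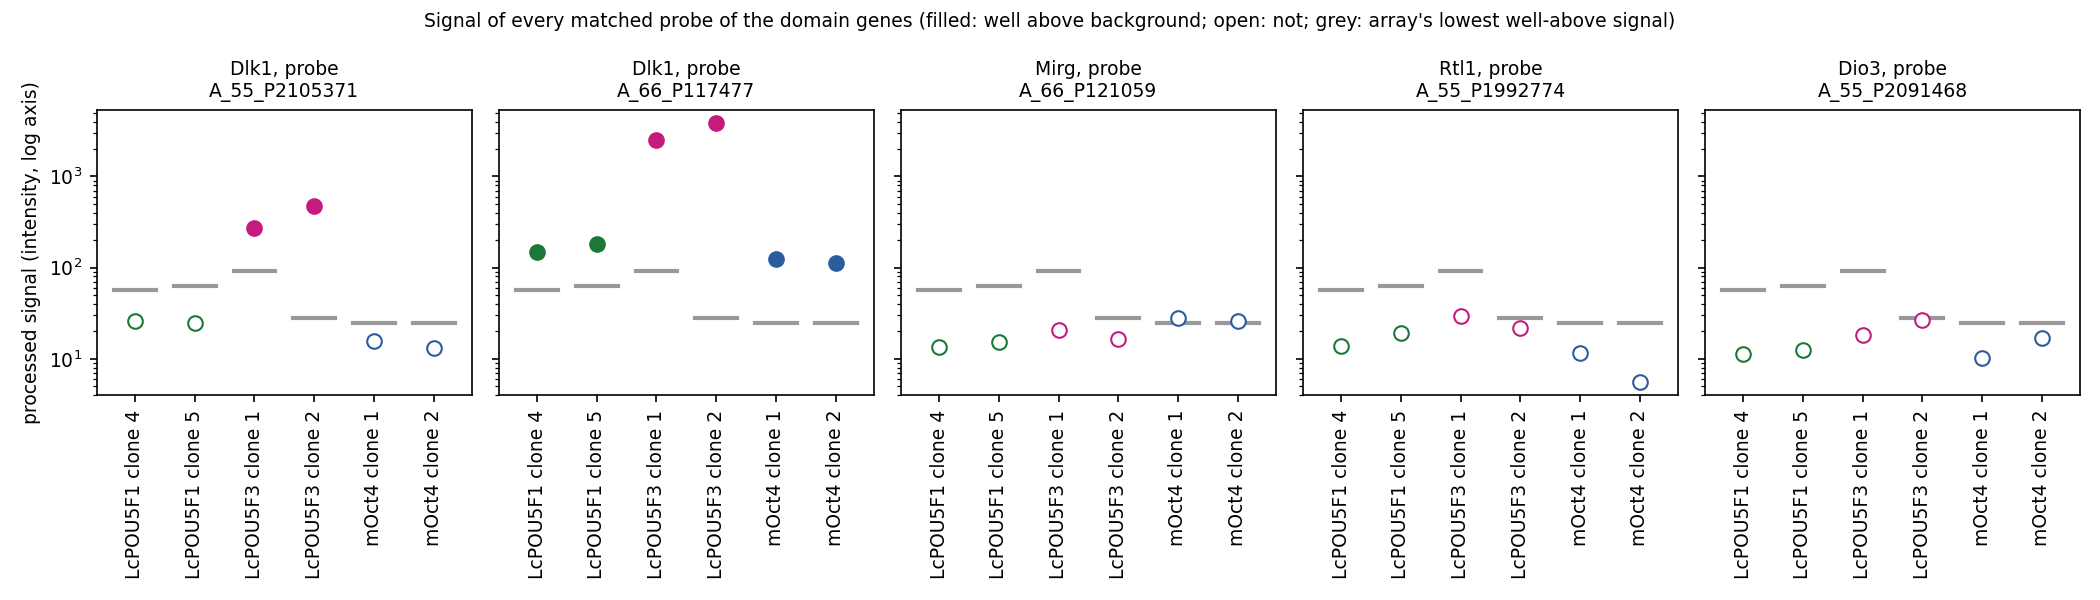
Processed signal (log axis) of each matched probe of Dlk1, Mirg, Rtl1 and Dio3 on the 6 arrays, grouped as LcPOU5F1, LcPOU5F3 and mOct4. Filled points are well above background, open points are not, and grey bars mark each array's lowest signal that was. Both Dlk1 probes stand out in the LcPOU5F3 clones, at 2486 and 3864 and at 275.1 and 470.9, and the other 3 probes have open points on all 6 arrays.

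In LcPOU5F3 against mOct4 clones, the fit over all 30939 kept probes (limma with Benjamini-Hochberg adjustment, called at an adjusted p under 0.05) called 12.2% of probes, 6.05% as higher and 6.15% as lower. Both kept Dlk1 probes were among the higher ones. The brighter probe rose by 4.27 ± 0.34 on the log2 scale (SE), or 19.3-fold, with a 95% confidence interval of 3.42 to 5.11 and a limma adjusted p of 0.0088. It ranked 116 by size among probes with a higher mean in LcPOU5F3. The dimmer probe was at least 10.8-fold higher, with a limma adjusted p of 0.0093 in the fit of its readings. The probes target 1 transcript and are not independent evidence, and the dimmer one passed the filter only through the LcPOU5F3 arrays, where it is high, so its call lends no support of its own. Without mOct4 clone 1 or mOct4 clone 2 the brighter probe stayed at 4.25 or 4.28 but its limma adjusted p became 0.118 or 0.123, as for all kept probes, of which 0 were then called. mOct4 clone 2 was alone on its slide, so the value without it is also the value within the other slide.

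In LcPOU5F1 against mOct4 clones, 0% of kept probes were called by limma, against 3929 with an unadjusted p under 0.05, and neither Dlk1 probe was among those. The brighter probe differed by 0.35 ± 0.34 (SE), with a 95% confidence interval of -0.50 to 1.19 and a limma adjusted p of 0.66. The dimmer probe was not well above background in either group, so no difference is given for it. Both comparisons share the mOct4 arrays.

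The coelacanth paralogs were also compared directly. LcPOU5F1 against LcPOU5F3 had 9.82% of kept probes called by limma, 4.68% as higher and 5.14% as lower, and both Dlk1 probes were among the lower ones. The brighter probe fell by 3.92 ± 0.34 on the log2 scale (SE), or 15.2-fold, with a limma adjusted p of 0.0093. The dimmer probe was at least 4.89-fold lower, with a limma adjusted p of 0.0113. Leaving out either LcPOU5F1 clone or either mOct4 clone ended both calls. The brighter probe then had limma adjusted p between 0.058 and 0.068, while its difference stayed between -4.17 and -3.67.

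**Figure D2:**
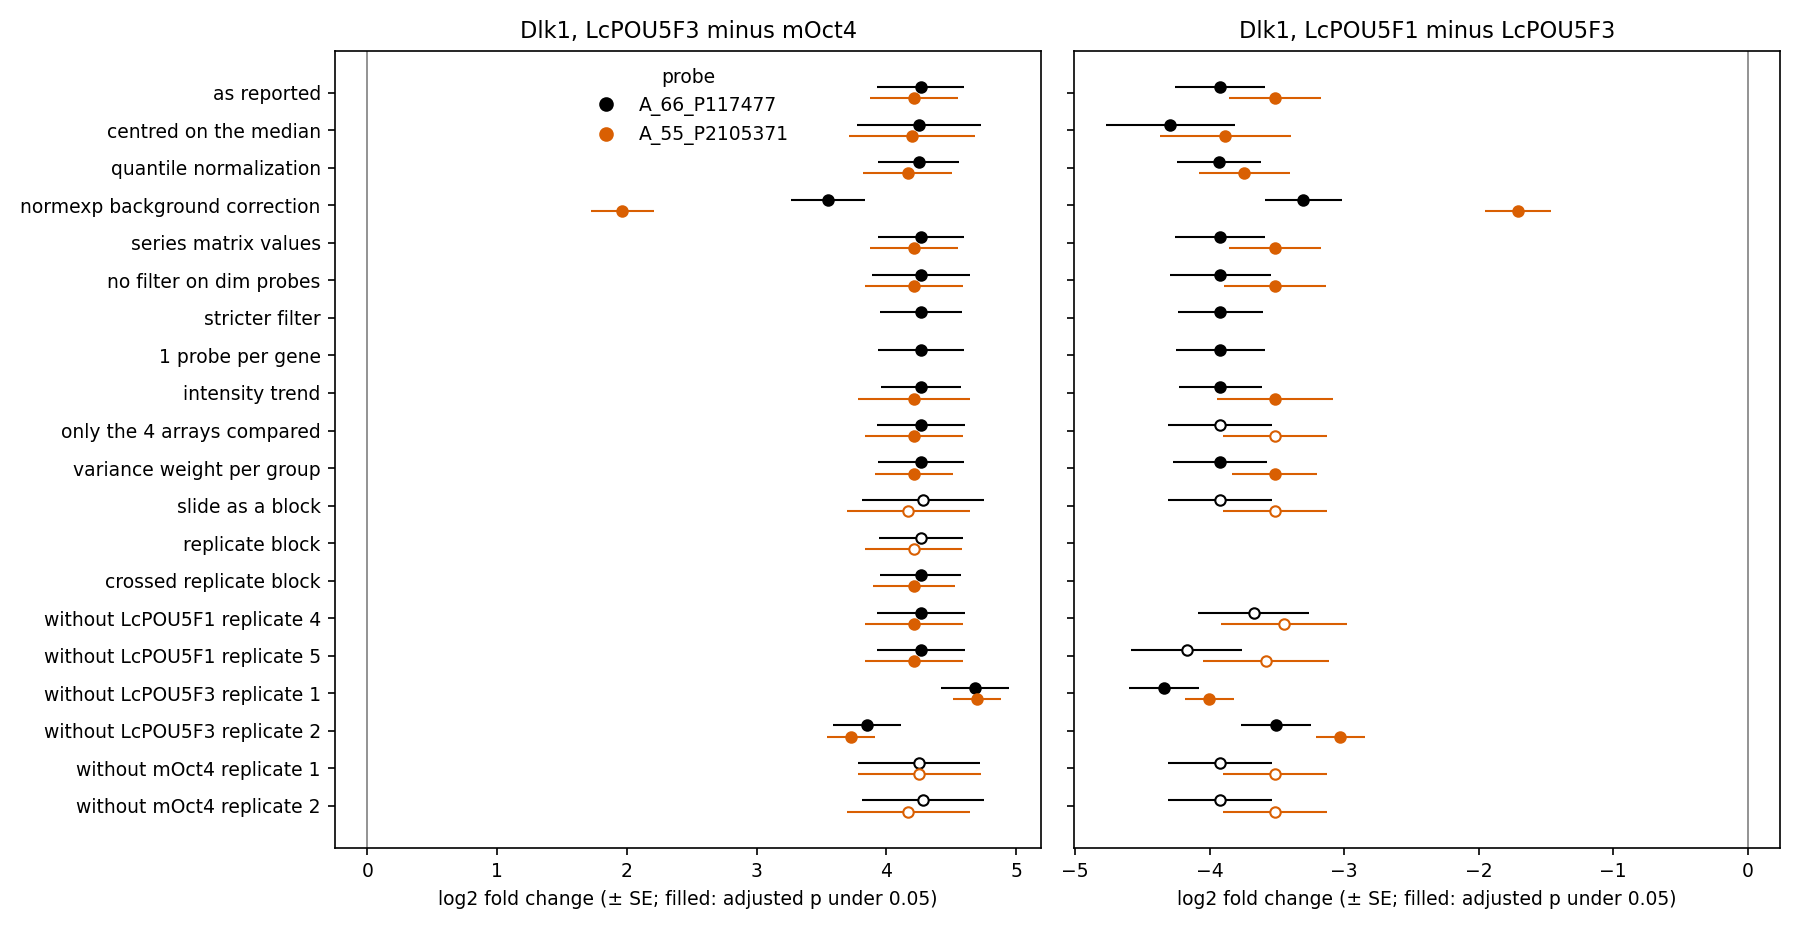
Log2 fold change (± SE) of the 2 Dlk1 probes in LcPOU5F3 minus mOct4 and in LcPOU5F1 minus LcPOU5F3, as reported and under each processing alternative. Filled points have a limma adjusted p under 0.05; a probe without a point was not in that fit. Values of A_55_P2105371 are fitted to readings that include ones not above background. Every point keeps its side of 0, from 1.97 to 4.70 in the left panel and from -4.34 to -1.71 in the right.

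The other coding members were not measured above background in any line. Rtl1, a gene derived from a retrotransposon that is needed in the placenta, read 13.7 and 19.4 in LcPOU5F1 clones 4 and 5, 29.3 and 21.9 in LcPOU5F3 clones 1 and 2, and 11.6 and 5.54 in mOct4 clones 1 and 2. Dio3, the deiodinase that inactivates thyroid hormone, read 11.4 and 12.4 in LcPOU5F1, 18.3 and 26.6 in LcPOU5F3, and 10.1 and 16.8 in mOct4 clones. None of these 12 readings was well above background, so no fold change is given for either gene, and a level below each array's limit cannot be told from none. The lowest signal that was well above background on an array lay between 24.6 and 91.5. Such readings are common on this array, where 36.6% of all probes were well above background on no array.

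The matched probe of Mirg, the maternally expressed host of a miRNA cluster, was also not well above background on any array. It read 13.6 and 15.3 in LcPOU5F1, 20.9 and 16.5 in LcPOU5F3, and 28.0 and 25.7 in mOct4 clones. Of 103 RefSeq genes from Dlk1 to Dio3, 61 are miRNA genes and 0 of those had a probe.

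Of the genes between Dlk1 and Dio3 outside the 6 members, 3 had a probe. The probes of 6430411K18Rik and 3110009F21Rik were well above background on no array. The probe of Dio3os, the noncoding RNA antisense to the Dio3 region, read 33.3 and 24.5 in LcPOU5F1, 52.4 and 34.6 in LcPOU5F3, and 36.3 and 27.5 in mOct4 clones. It was detected above background in both mOct4 clones and in LcPOU5F3 clone 2, its groups overlapped, and it was not called in any comparison (lowest limma adjusted p 0.43).

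The genes around the domain were measured for comparison with Dlk1. Of 15 flanking genes with 22 kept probes, 0 were called higher and 1 was called lower in LcPOU5F3 against mOct4 clones, beside 6.05% of all kept probes higher and 6.15% lower, so these counts are near those of all probes. Beside 0% of all kept probes in LcPOU5F1 against mOct4 and 9.82% in LcPOU5F1 against LcPOU5F3, 0 of these genes were called. Their differences in LcPOU5F3 against mOct4 ran from -1.48 to 1.13, against 4.27 for the brighter Dlk1 probe. Begain, the nearest measured gene on the Dlk1 side, which encodes a protein of the synapse, read 111.0 and 78.3 in LcPOU5F1, 124.4 and 124.9 in LcPOU5F3, and 156.6 and 109.0 in mOct4 clones. Relative to the 75th percentile its log2 level was -1.59 and -1.89 in LcPOU5F1, -1.73 and -1.53 in LcPOU5F3 and -0.96 and -1.30 in mOct4 clones, so the LcPOU5F3 clones lay below the mOct4 clones, with a difference of -0.50 ± 0.22 (SE) and a limma adjusted p of 0.19. Wdr25, next beyond it, differed by -0.32 ± 0.32 (SE) with a limma adjusted p of 0.55.

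The gene called lower was Mok, a kinase gene on the Dio3 side. Its brighter probe read 1857 and 2223 in LcPOU5F1, 1429 and 1334 in LcPOU5F3, and 3012 and 2696 in mOct4 clones, and the groups did not overlap. It fell by 1.48 ± 0.21 (SE) in LcPOU5F3 against mOct4 clones with a limma adjusted p of 0.020, and by 0.91 ± 0.18 (SE) on the other probe with an adjusted p of 0.036.

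**Figure D3:**
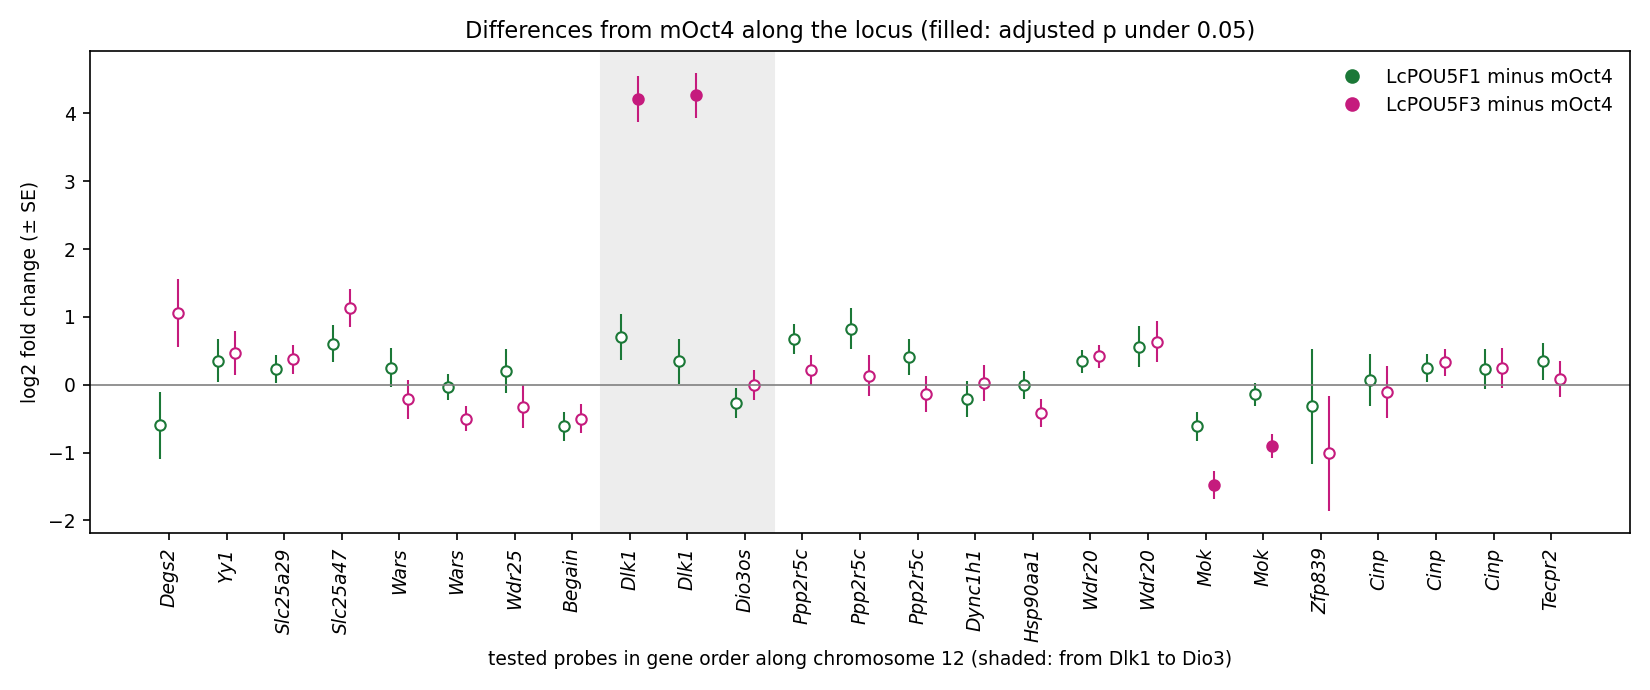
Log2 fold change (± SE) of each kept probe in RefSeq gene order along chromosome 12, for LcPOU5F1 minus mOct4 and LcPOU5F3 minus mOct4, with the domain shaded. The 2 Dlk1 probes in LcPOU5F3 lie at 4.21 (fitted against mOct4 readings not above background) and 4.27, and the flanking probes lie between -1.48 and 1.13, with filled points for the 2 Mok probes.

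Transcripts of the noncoding side may also be read by probes that the design names only by an interval of the mm9 build. Around chr12:110973190-110987668, whose end minus its start equals the length RefSeq gives Mirg (14478 bases), 14 intervals with gaps of at most 100000 bases ran from 110653148 to 111080561. That length was the only one of its kind among 170 named intervals of chromosome 12, and 2 of all 3540 named intervals had it. The match of length is all that ties this stretch to the domain here, and no gene name is given to its probes. Of its 83 probes, 11 were well above background on all 6 arrays and 43 on none.

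The 3 probes of the interval with Mirg's length were well above background on all 6 arrays. The brightest read 165.5 and 169.2 in LcPOU5F1, 256.0 and 168.0 in LcPOU5F3, and 104.3 and 120.8 in mOct4 clones. Both coelacanth groups lay above the mOct4 clones on this probe, with a difference of 0.45 ± 0.24 (SE) for LcPOU5F3 against mOct4, a limma adjusted p of 0.27 and thus no call. The other 2 probes were not called in any comparison either.

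Of the 36 kept probes of the stretch, limma called 0 in each of the 3 comparisons, and 1 in each had an unadjusted p under 0.05. Their lowest limma adjusted p was 0.153 for LcPOU5F3 against mOct4, 0.390 for LcPOU5F1 against mOct4 and 0.122 for LcPOU5F1 against LcPOU5F3. In LcPOU5F3 against mOct4 their fitted differences ran from -0.99 to 1.31 with a median of 0.05, beside a median of -0.11 over all kept probes. Both ends rest in part on readings not above background. The probe at -0.99 was well above it on neither LcPOU5F3 array, and the probe at 1.31 on 1 of 2 mOct4 arrays. No fitted difference of the stretch came near that of Dlk1, but those that include such readings are not exact.

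**Figure D4:**
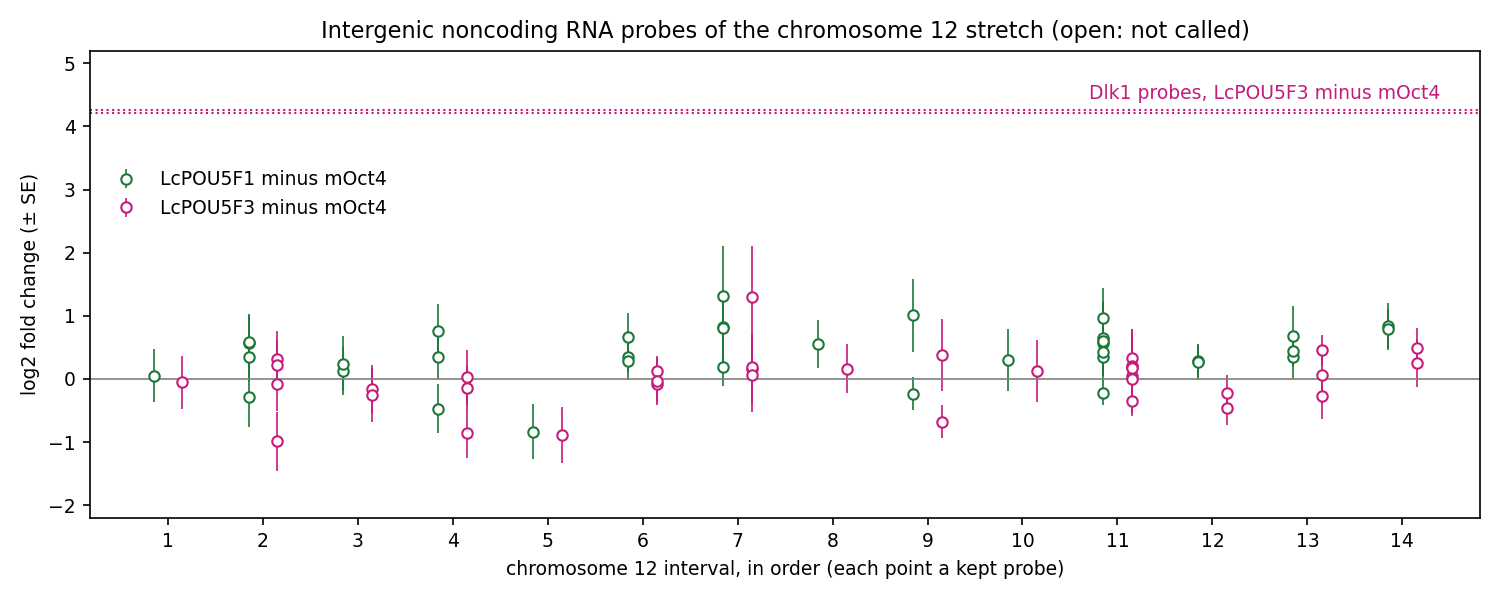
Log2 fold change (± SE) of the 36 kept probes of the interval stretch, by interval in chromosome order, for LcPOU5F1 minus mOct4 and LcPOU5F3 minus mOct4. The open points lie between -0.99 and 1.31 in both comparisons, below the dotted lines at the fitted values of the 2 Dlk1 probes, 4.21 and 4.27. Some points are fitted to readings that include ones not above background.

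Genes that set, keep or erase imprints and related chromatin marks were next set beside Dlk1. Of 23 such genes with a kept probe, 1 rose and 6 fell in LcPOU5F3 against mOct4 clones, beside 6.05% of all kept probes higher and 6.15% lower. In LcPOU5F1 against mOct4, 0 were called, as for all kept probes. Beside 4.68% of all kept probes higher and 5.14% lower, 6 of these genes were higher and 1 lower in LcPOU5F1 against LcPOU5F3. Their median difference was -0.47, 0.12 and 0.45 in these 3 comparisons, beside -0.11, 0.11 and 0.27 over all kept probes. Dppa3, which shields methylated imprints in the early embryo and is known to act on this domain in reprogramming, was the gene called higher, with a limma adjusted p of 0.012. It was well above background on both LcPOU5F3 arrays and on 1 of 2 mOct4 arrays, and passed the filter through LcPOU5F3 alone, where it is high, so its fitted difference of 2.98 ± 0.31 (SE) rests in part on a reading not above background.

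The gene that fell furthest was Dnmt3l, the cofactor of the de novo methyltransferases, by 4.27 ± 0.71 (SE) with a limma adjusted p of 0.026. Its difference in LcPOU5F1 against mOct4 was -4.46 with a limma adjusted p of 0.20, which became 0.040 without either LcPOU5F3 clone. Tet1, an enzyme that oxidises methylated cytosine, fell by 2.27 ± 0.34 (SE), and Zfp42, a zinc finger protein of naive cells, by 2.19 ± 0.32 (SE). The others that fell were Jarid2 (-1.24) and Eed (-0.75), both of Polycomb complex PRC2, and Trim28 (-0.89), the corepressor that ZFP57 recruits. Jarid2 and Trim28 were named for their p in LcPOU5F1 against LcPOU5F3, and Eed after its values were seen. ZFP57 itself holds the methylated copy of the domain's control region, and Zfp57 differed by -0.75 ± 0.39 (SE) with a limma adjusted p of 0.25, or by -1.32 with an adjusted p of 0.011 without LcPOU5F3 clone 1. The maintenance methyltransferase gene Dnmt1 differed by -0.24 and was not called.

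**Figure D5:**
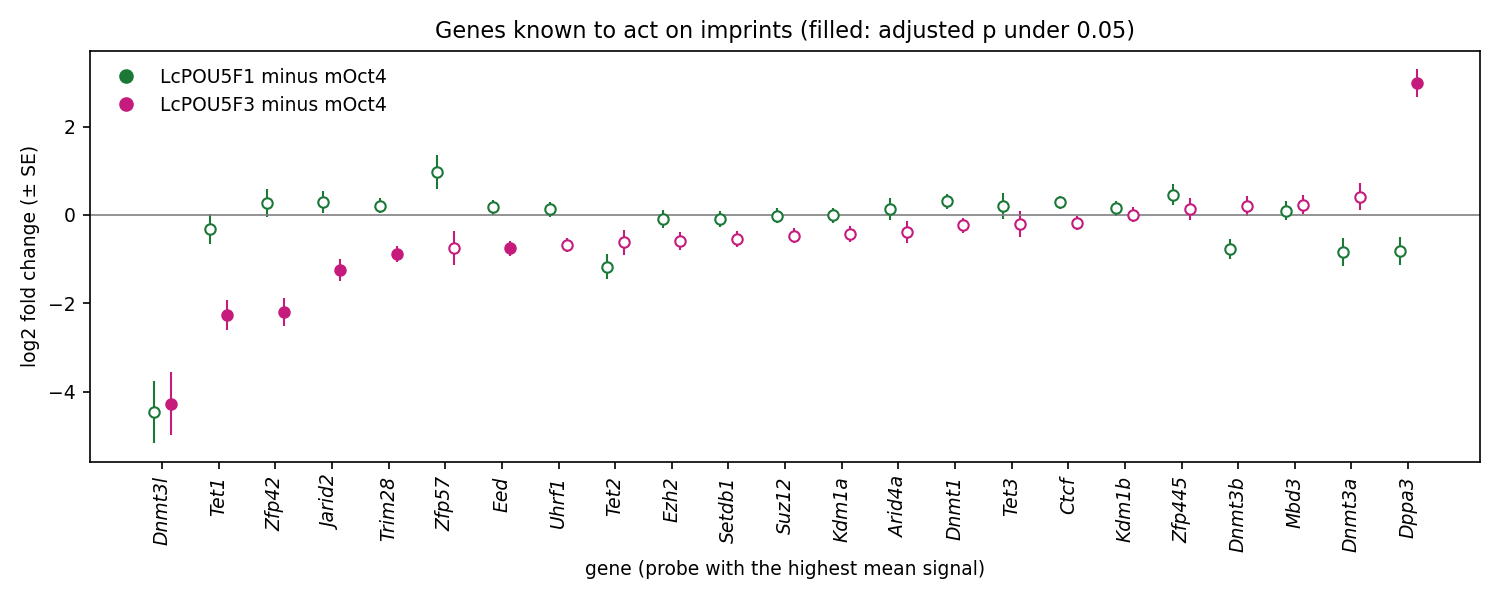
Log2 fold change (± SE) of the 23 genes known to act on imprints, for LcPOU5F1 minus mOct4 and LcPOU5F3 minus mOct4, in order of the LcPOU5F3 difference. Filled points have a limma adjusted p under 0.05 and run from Dnmt3l at -4.27 to Dppa3 at 2.98, all in LcPOU5F3.

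Dlk1 is counted among the ligands that touch the Notch pathway, in which a cell-bound ligand releases the receptor's inner part to switch on Hes and Hey genes through the factor RBPJ. Of 22 pathway genes with a kept probe, 2 rose and 3 fell in LcPOU5F3 against mOct4 clones, beside 6.05% of all kept probes higher and 6.15% lower. In LcPOU5F1 against mOct4, 0 were called, as for all kept probes. In LcPOU5F1 against LcPOU5F3, 1 was higher and 3 lower, beside 4.68% of all kept probes higher and 5.14% lower. Dlk2, the closest relative of Dlk1, rose by 1.58 ± 0.25 (SE) in LcPOU5F3 against mOct4 with a limma adjusted p of 0.024, and differed by 0.75 on its other probe. The ligand gene Dner was well above background in LcPOU5F3 and mOct4 clones and on no LcPOU5F1 array, and was at least 1.35-fold lower in LcPOU5F1 than in LcPOU5F3 clones.

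Among the receptors, Notch3 rose by 2.83 ± 0.30 (SE) and Notch4 fell by 2.92 ± 0.27 (SE) in LcPOU5F3 against mOct4 clones, with limma adjusted p of 0.012 and 0.010. Among the genes downstream, Hes5, kept through the mOct4 arrays alone, was at least 1.50-fold lower in LcPOU5F3. Rbpj, named for its p in LcPOU5F1 against mOct4, fell by 0.88 ± 0.17 (SE) in LcPOU5F3 against mOct4 clones. In LcPOU5F1 against LcPOU5F3, Notch3 fell by 2.66 and Notch4 was 3.62 higher on the log2 scale. The median of the 22 genes was 0.23 in LcPOU5F3 against mOct4, beside -0.11 over all kept probes.

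Imprinted genes outside the domain were counted from a chosen list. Of 21 with a kept probe, 7 rose and 2 fell in LcPOU5F3 against mOct4 clones, beside 6.05% of all kept probes higher and 6.15% lower. In LcPOU5F1 against mOct4, 0 were called, as for all kept probes. In LcPOU5F1 against LcPOU5F3, 0 were higher and 7 lower, beside 4.68% of all kept probes higher and 5.14% lower. The differences that follow are for LcPOU5F3 against mOct4 clones. Nnat, a small membrane protein gene, rose by 3.15 ± 0.24 (SE), and Peg3, a zinc finger gene, by 2.55 ± 0.30 (SE), or 1.88 on its other probe. Dcn, which encodes the matrix proteoglycan decorin, was well above background in the LcPOU5F3 clones alone and at least 10.2-fold higher there than in mOct4 clones. Magel2, an activator of ubiquitin ligases, was at least 1.98-fold lower in LcPOU5F3 than in mOct4 clones. Dcn passed the filter through LcPOU5F3 alone and Magel2 through mOct4 alone, each the group where it is high, so the filter favoured both calls. The list's median was 0.52 in that comparison, and the list overlaps genes already known to have moved in these samples, so it is no independent evidence of a direction.

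The genes whose pattern over the 6 arrays was most like that of the brighter Dlk1 probe were found by the root mean square difference of log2 values, each probe centred on its own mean. They were Plcxd2 (0.18), Lama4 (0.20), Zfp608 (0.20), Wnt4 (0.21) and Tgfbr3 (0.21), beside 0.22 for Dlk1's own dimmer probe. Plcxd2 read 112.1 and 117.2 in LcPOU5F1, 1463 and 2757 in LcPOU5F3, and 96.0 and 97.0 in mOct4 clones, all well above background. Lama4, a laminin chain of vessel and other basement membranes, and Zfp608 were well above background in the LcPOU5F3 clones alone, so their low levels are bounds. Wnt4, a signalling ligand, and Tgfbr3, a coreceptor for TGF-beta ligands, were well above background in LcPOU5F3 and mOct4 clones. They were so on neither LcPOU5F1 array, which gives no order between LcPOU5F1 and mOct4 clones. The lowest signal well above background was 57.1 and 62.2 on the LcPOU5F1 arrays and 24.6 and 24.7 on the mOct4 arrays. Wnt4 read 35.9 and 43.2 in LcPOU5F1 and 34.9 and 37.4 in mOct4 clones. Tgfbr3 read 40.7 and 55.7 in LcPOU5F1 and 46.7 and 32.3 in mOct4 clones. With 6 arrays in 3 groups, likeness of this kind mostly records the contrast of LcPOU5F3 with the rest.

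Markers of the stem cell state and of other cell types were measured beside Dlk1. Summed signals in LcPOU5F3 did not overlap those of the other clones for the trophectoderm, naive pluripotency, primitive endoderm and neuroectoderm lists. Those of the mesoderm and mesenchyme list did. Summed over 20 trophectoderm genes, signal relative to the 75th percentile was 76.2 to 101 in LcPOU5F1, 692 to 733 in LcPOU5F3 and 88.4 to 89.3 in mOct4 clones, with Elf5 and Tpbpa well above background on no array. The sums are of linear signal, so the brightest genes weigh most. In LcPOU5F3 these were the keratin genes Krt18 and Krt8, at mean log2 levels of 8.79 and 6.77. Of 18 trophectoderm genes with a kept probe, 11 rose and 1 fell in LcPOU5F3 against mOct4 clones. Over all kept probes 6.05% were called higher and 6.15% lower. The keratin gene Krt8 rose by 5.87 ± 0.20 (SE). The gene that fell was Eomes, by 1.97 ± 0.38 (SE), with a difference of -3.09 on its other probe. The summed signal of 23 naive pluripotency genes was 684 to 818 in LcPOU5F1, 211 to 276 in LcPOU5F3 and 726 to 727 in mOct4 clones. Of the 23, 2 rose and 12 fell in LcPOU5F3 against mOct4 clones, beside the same 6.05% and 6.15% of all kept probes. Of 15 mesoderm and mesenchyme genes with a kept probe 4 rose and 1 fell in LcPOU5F3, again beside 6.05% and 6.15% of all kept probes. Summed signals over 20 were 67.9 to 120 in LcPOU5F1, 117 to 244 in LcPOU5F3 and 121 to 134 in mOct4 clones, which overlap. T, Mixl1, Mesp1 and Lum were well above background on no array. The part of these cell states in the Dlk1 difference was not tested, and in bulk RNA more cells with Dlk1 and more Dlk1 RNA per cell cannot be told apart.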

How the data were processed

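Total RNA of 6 lines was hybridised to 1-colour Agilent arrays. Per the file headers, the authors extracted spot intensity with Feature Extraction 11.0.1.1 under its GE1_1100_Jul11 settings, and the deposited processed intensity is linear and background-subtracted. The deposited series matrix holds the same intensity rounded (within 0.5% on every array) and served as an alternative. The design names mm9.

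Groups came from the labels. Control and outlier spots were left out, spots of a probe averaged, and log2 intensity centred on each array's 75th percentile. Of 55681 probes, 27656 had 1 symbol through RefSeq accessions (GRCm38.p6, names and gene order only) and 28025 none. Probes detected well above background by both arrays of any group were kept, and 30939 were fitted with limma 3.58.1 (R 4.3.3, lmFit and eBayes, 3 residual degrees of freedom, 5.30 after moderation), adjusted by Benjamini-Hochberg over all of them. With clones as replicates, p-values reflect the spread among picked colonies. The fit was tested on simulated data with the spread of each group. It called 2% to 4% of simulated log2 changes of 1, 60% to 70% of those of 2 and 86% to 96% of those of 3, depending on the comparison. A probe that was not called may therefore still differ.

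All member probes were named, with up to 4 genes per list and comparison by smallest p, any flanking gene, and the 5 nearest patterns. A list gene is represented by its kept probe with the highest mean. List counts are therefore of genes, while the shares set beside them are of all kept probes, dim ones and ones without a symbol included. Members and lists were chosen with earlier results of these data known. Normexp (offset 50) used the median signal, since the mean signal planned for it is not among the columns used here. Equal clone numbers mark no shared origin (correlation of deviations of same-numbered LcPOU5F3 and mOct4 clones -0.13).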

Additional observations from a re-analysis of the deposited data

How the results depend on the processing

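The Dlk1 differences kept their direction in LcPOU5F3 against mOct4 and in LcPOU5F1 against LcPOU5F3 under every alternative, but the calls rest on few arrays. In LcPOU5F3 against mOct4, 2 Dlk1 probes were called as reported, 1 under the stricter filter and with 1 probe per gene (which keep only the brighter), 0 with the slide as a block, 0 with a replicate block (limma adjusted p of the brighter probe 0.093), and 0 to 2 with a clone left out (0 without either mOct4 clone). Over all probes 3775 were called as reported, 340 without a filter, 6952 with an intensity trend, 1456 with only the 4 arrays compared, 0 with the slide or with a replicate block, and 0 to 7390 with a clone left out. The crossed replicate block, added after seeing the data because same-numbered clones correlated below -0.1, called 1088 probes and both of Dlk1. In LcPOU5F1 against mOct4, 0 Dlk1 probes were called under any alternative; over all probes the count of 0 became 784 centred on the median, 130 with quantile normalization, 13 with normexp, 6 with 1 probe per gene, 54 with a trend, 748 with only the 4 arrays, 667 with a variance weight per group and 0 to 748 with a clone left out. In LcPOU5F1 against LcPOU5F3, the 2 Dlk1 calls became 1 under the stricter filter and with 1 probe per gene, 0 with only the 4 arrays, 0 with the slide, and 0 to 2 with a clone left out; over all probes 3037 became 277 without a filter, 6604 with a trend, 73 with only the 4 arrays or the slide, 1521 with a variance weight and 18 to 10761 with a clone left out. Fits with a clone left out assume that the lone clone varies like the other groups, and fewer arrays leave fewer degrees of freedom. Normexp lowered the dimmer Dlk1 probe in LcPOU5F3 against mOct4 to 1.97. Signs turned, with no call on either side, for the brighter Dlk1 probe in LcPOU5F1 against mOct4 (-0.038 centred on the median) and, with a clone left out in LcPOU5F3 against mOct4, for Wdr25 (-0.73 to 0.088) and Dio3os (-0.20 to 0.20). For 32 called differences of other named genes, 359 of 592 values under the alternatives kept direction and call, 233 lost the call and 0 changed direction; all those in LcPOU5F3 against mOct4 lost it without either mOct4 clone. Dnmt3l in LcPOU5F1 against mOct4 passed the threshold centred on the median, with a trend, with only the 4 arrays, with a variance weight, and without either LcPOU5F3 clone. The cause of these changes was not tested.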

Other observations

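Other genes with the ancestry or the substrate of domain members were also counted. Of 10 genes with a kept probe that derive from retrotransposons as Rtl1 does, or adjoin one, 2 rose and 0 fell in LcPOU5F3 against mOct4 clones, beside 6.05% of all kept probes higher and 6.15% lower. In LcPOU5F1 against LcPOU5F3, 0 were higher and 3 lower, beside 4.68% and 5.14% of all kept probes. The first differences below are for LcPOU5F3 against mOct4 clones. Ldoc1 rose by 2.14 ± 0.30 (SE) with a limma adjusted p of 0.019, and Sgce, the imprinted neighbour of Peg10, by 1.44 ± 0.17 (SE) with an adjusted p of 0.015. Peg10, a paternally expressed placental gene, differed by 0.75 with a limma adjusted p of 0.12 (1.01 and 0.043 without LcPOU5F3 clone 1), and in LcPOU5F1 against LcPOU5F3 it fell by 1.76 ± 0.26 (SE). Its other probe differed by 0.04 and -0.60 in these comparisons. Of 14 thyroid hormone genes with a kept probe, the pathway that Dio3 dampens, 1 rose and 1 fell in LcPOU5F3 against mOct4 clones, near the 12.2% of all kept probes called there. The receptor gene Thra rose by 1.05 ± 0.21 (SE), and Klf9, a known thyroid hormone target, fell by 0.84 ± 0.18 (SE).

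Of 12 primitive endoderm genes with a kept probe, 3 rose and 1 fell in LcPOU5F3 against mOct4 clones, beside 6.05% of all kept probes higher and 6.15% lower. Summed signals were 201 to 248 in LcPOU5F1, 307 to 399 in LcPOU5F3 and 189 to 191 in mOct4 clones. Afp, Apoa1, Hnf4a, Pdgfra and Ttr were well above background on no array. Dab2, an endocytic adaptor, was at least 20.7-fold higher in LcPOU5F3 than in mOct4 clones. It passed the filter through LcPOU5F3 alone, the group where it is high, so the filter favoured its call. Lamb1 rose by 2.37 ± 0.18 (SE) and Col4a2 by 1.99 ± 0.43 (SE), and Amn fell by 1.52 ± 0.20 (SE). Of 13 neuroectoderm genes with a kept probe 1 rose and 3 fell in LcPOU5F3 against mOct4 clones, beside the same 6.05% and 6.15%. Summed signals were 27.6 to 30.9 in LcPOU5F1, 18.7 to 19.4 in LcPOU5F3 and 39.3 to 42.1 in mOct4 clones. Neurog2 and Olig2 were well above background on no array. Pax3 rose by 3.22 ± 0.16 (SE), and Tubb3 (-3.49), Ncam1 (-1.76) and Otx2 (-1.30) fell.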
